A study of Mus musculus with 21 samples.

Results

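B-cell depletion was compared with no depletion in mouse liver tumours that received no checkpoint antibodies. The tumours were grown from Hepa1-6, a mouse hepatoma cell line, in C57BL/6 mice. Poly(A) RNA sequencing of snap-frozen tumour tissue gave a gene count table of 21 libraries in 4 arms. All 11 libraries given isotype antibody, an immunoglobulin with no intended target that serves as the control treatment, were taken: 5 labelled WT and 6 labelled B-cell depletion. The other 10 libraries, 5 WT and 5 B-depleted, received anti-PD1 plus anti-CTLA4. They helped to estimate the spread and supplied the comparison given last. Both isotype arms shared the cell line, the host strain and the isotype treatment, and differed in B-cell status alone as far as the labels go. The labels list the depletion under genotype and say neither how B cells were depleted nor the age or sex of the hosts. They do not say whether libraries of an arm came from separate animals, so the p-values measure the spread between these libraries, which may be technical.

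B cells carry the surface protein CD20, encoded by Ms4a1. They mature into plasma cells, which secrete immunoglobulin, so that a few very active cells can supply most of the immunoglobulin RNA of a tissue. B cells also present antigen on MHC class II to T cells, and their antibodies act through Fc receptors on myeloid cells and through complement. The comparison therefore addresses what tumour RNA looks like when B cells are removed and no T-cell checkpoint is blocked. In bulk tissue, fewer cells of a type and less RNA per cell cannot be told apart.

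Sequencing depth was alike in both arms. Library totals ranged from 15.03 to 18.13 M counts (M, 1e+06) in WT and from 10.92 to 19.17 M in B-depleted tumours, with B-depleted library 3 the shallowest. The arm means differed by -1.07 M (two-sided exact permutation test over 462 splits, p = 0.526, or 0.613 adjusted over the 2 library measures tested). Afp and Alb, which mark hepatoma and hepatocyte-like cells, were present in every library, Afp at 138 CPM (counts per 1e+06 counts of the library) or more. In all, 4 libraries stood apart in their immunoglobulin RNA. WT libraries 1 and 2 and B-depleted libraries 3 and 5 held the most of it. They were also above the 11-library mean in the T-cell, NK-cell, dendritic-cell and MHC class II lists. B-depleted library 4 was above that mean in these lists as well, and WT library 1 was only 0.07 above it in T-cell genes (mean log2 CPM). The 4 Y-linked genes summed to 78.1, 79.2, 47.6, 75.8 and 78.4 CPM in WT libraries 1 to 5 and to 46.3, 57.2, 109, 79.8, 119 and 77.1 CPM in B-depleted libraries 1 to 6. Xist was present in every library as well, and the source of either transcript was not tested. On the log2 scale the summed Y-linked level differed by 0.13 between the arms (two-sided exact permutation test, p = 0.613, adjusted 0.613), and in B-depleted tumours it was highest in libraries 3 and 5.

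Across the transcriptome the arms were close to each other. Of 19061 genes tested, 0 (0%) passed an adjusted p of 0.05 in edgeR's quasi-likelihood test with Benjamini-Hochberg adjustment. The smallest adjusted p was 0.0583, for Klf15. DESeq2 called 5 of 19044 genes (0.0263%), all lower in B-depleted tumours, and limma voom called 0. Without adjustment, 563 genes (2.95%) had an edgeR p under 0.05, of which 343 (1.8%) were lower and 220 (1.15%) higher in B-depleted tumours, and 111 of them differed at least 2-fold. In 34 genes (0.178%) every B-depleted library lay below every WT library, and in 54 (0.283%) above. With random labels each of these orders is 1 of 462 splits (0.00216), so non-overlap alone does not set a gene apart. The 2.95% likewise lies below 0.05, the share that random labels would give on average. The median log2 difference was -0.01 and the median size of a difference 0.09, against a median within-arm SD of log2 CPM of 0.25 in WT and 0.24 in B-depleted tumours. The values below are therefore levels and estimates with their errors, and where a named gene passed under another setting, that call is given.

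**Figure D1:**
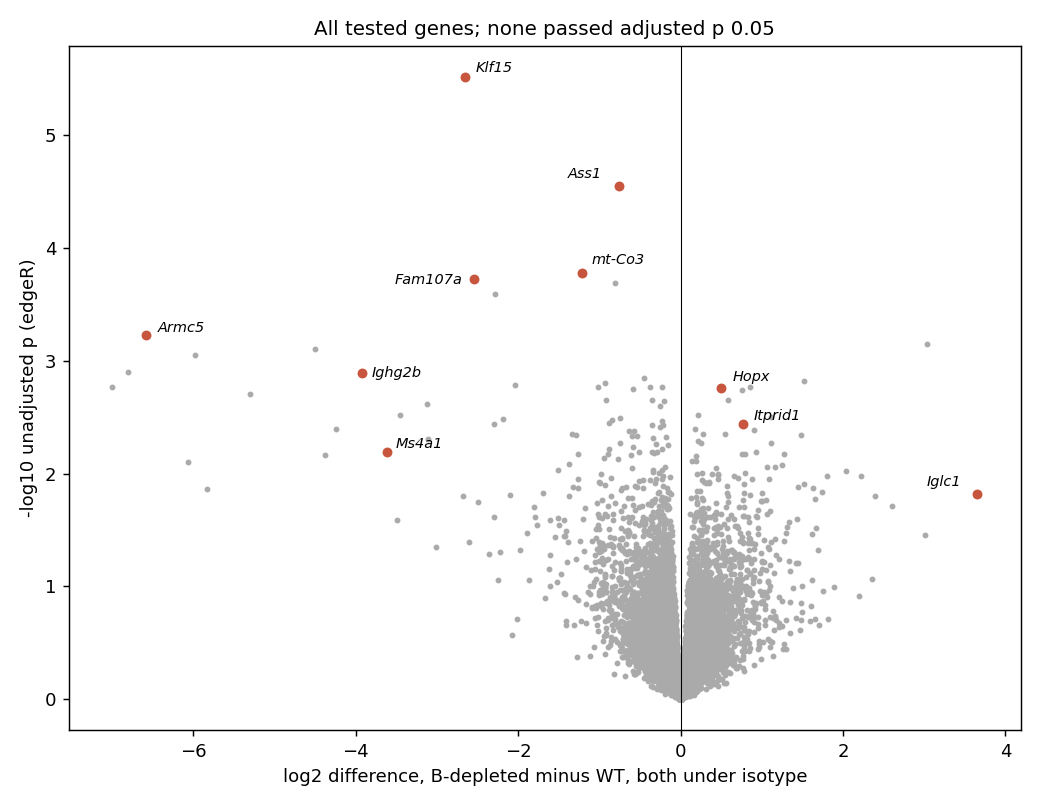
Each point is 1 of the tested genes, with its log2 difference between B-depleted and WT tumours under isotype on the x axis and its unadjusted edgeR p on a -log10 scale on the y axis. Klf15 and Ass1 lie highest, both on the lower side, and no gene passed the adjusted threshold of 0.05.

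Ms4a1, which encodes CD20 of the mature B-cell surface, had a lower mean in B-depleted tumours, at very low counts. It was at 1.05, 0.466, 0.353, 0.344 and 0.110 CPM in WT libraries 1 to 5. In B-depleted libraries 1 to 6 it was at 0, 0.0641, 0, 0, 0 and 0.104 CPM. Of the 6 B-depleted libraries 4 had no count. WT library 5 and B-depleted library 6, the closest pair, had 2 counts each, and only their different depth kept the arms' CPM apart. Summed over libraries these are 40 against 3 counts, a depth-adjusted ratio of 0.0667 (95% interval 0.0132 to 0.209, counting error only). The fitted log2 difference was -3.62 ± 1.19 (SE; 95% interval -6.10 to -1.14), with an edgeR adjusted p of 0.9998. It was -2.84 without WT libraries 1 and 2, and -3.22 without B-depleted libraries 3 and 5.

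Cd79a and Cd79b, the signalling chains of the antigen receptor, differed by -1.02 and -0.68 on the log2 scale. Spib, a transcription factor of B cells and plasmacytoid dendritic cells, differed by -1.0 ± 0.46 (SE; 95% interval -1.96 to -0.05). For these 3 genes the arms overlapped, and B-depleted library 3 was among the higher libraries of its arm, with Cd79b at 1.65 CPM against at most 1.38 CPM in WT.

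Other genes of the B-cell list had arms that overlapped. Pax5, the transcription factor that commits cells to the B lineage, was at 23.4, 27.5, 39.04, 31.7 and 28.7 CPM in WT and between 18.8 and 38.4 CPM (median 24.3) in B-depleted tumours. Its log2 difference was -0.18 ± 0.20 (SE; 95% interval -0.60 to 0.24). Ebf1 (-0.05), Cd22 (-0.29), Cd37 (-0.08), Cd72 (-0.15), Bank1 (-0.32), Fcrla (-0.25) and Cxcr5 (0.11) likewise had arms that overlapped. Of the 16 B-cell genes 13 were tested, 12 with a lower and 1 with a higher estimate, and the median log2 difference was -0.29, against -0.01 over all genes. None passed, 3 had an unadjusted edgeR p under 0.05 in the lower direction (1.8% of all genes did) and 1, Ms4a1, did not overlap in CPM, by that margin of depth. The list median was -0.03 without WT libraries 1 and 2 and -1.18 without B-depleted libraries 3 and 5, and leaving out single libraries gave -0.52 (without B-depleted library 5) to -0.17 (without B-depleted library 1). Blk, Cr2 and Fcer2a were too low to test, with 15, 12 and 11 counts in WT and 11, 5 and 6 in B-depleted tumours.

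Immunoglobulin transcripts separated the B-depleted libraries into unlike ones. Summed constant-region genes were at 657, 259, 14.5, 51.3 and 50.1 CPM in WT libraries 1 to 5 and at 4.95, 5.901, 243, 15.5, 262 and 9.18 CPM in B-depleted libraries 1 to 6. Libraries 1, 2, 4 and 6 of the B-depleted arm lay near or below the lowest WT value, whereas libraries 3 and 5 matched WT library 2. The variable segments showed the same division. They summed to 243, 84.3, 4.59, 16.4 and 15.1 CPM in WT and to 0.814, 0.898, 104, 0.390, 108 and 2.45 CPM in B-depleted libraries. Of 218 segments in the table, 85, 92, 28, 53 and 62 were detected in WT libraries 1 to 5, and 9, 4, 39, 6, 42 and 15 in B-depleted libraries 1 to 6.

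The immunoglobulin RNA of B-depleted libraries 3 and 5 came from few segments relative to its amount. In library 5 the segment Ighv9-3 held 46.4% of 1822 variable-segment counts, and in library 3 Ighv1-82 held 15.7% of 1139. In WT libraries 1 and 2 the leading segment held 12.2% of 4409 and 12.9% of 1268 counts. Library 3 had 39 segments at 104 CPM, fewer than the 53 and 62 of WT libraries 4 and 5 at 16.4 and 15.1 CPM. Ms4a1 had no count in B-depleted libraries 3 and 5, nor in libraries 1 and 4. Cd79b had 18 and 16 counts in libraries 3 and 5, against 12 to 25 in WT. As mean log2 CPM relative to the 11-library mean, the B-cell list stood at 0.25 and 0.26 there, against 0.06 to 0.61 in WT.

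By isotype, Igkc, the kappa light chain, was at 261, 98.2, 4.23, 18.2 and 16.6 CPM in WT and at 1.25, 0.834, 77.5, 1.28, 14.5 and 1.67 CPM in B-depleted libraries, and the arms overlapped through B-depleted libraries 3 and 5. Its log2 difference was -2.36 ± 1.14 (SE; 95% interval -4.74 to 0.02). It became -5.97 without B-depleted libraries 3 and 5, and 0.26 without WT libraries 1 and 2. Ighm, the IgM heavy chain, differed by -1.24 ± 0.57 (SE; 95% interval -2.42 to -0.06) and Igha, the IgA heavy chain, by -1.60. Ighg2b had the lowest unadjusted p of the heavy chains, with 39.7, 11.2, 0.470, 1.09 and 5.79 CPM in WT and between 0 and 2.84 CPM (median 0.318) in B-depleted tumours. Its log2 difference was -3.92 ± 1.05 (SE; 95% interval -6.10 to -1.74) (edgeR adjusted p 0.9998), the arms overlapped, and it was -1.67 without WT libraries 1 and 2. Ighg1 (-0.82), Ighg2c (-0.69) and Ighd (-1.27) had intervals that included 0. Iglc1, a lambda light chain, went the other way at 3.65 ± 1.37 (SE; 95% interval 0.79 to 6.52), with 68.9 CPM in B-depleted library 5, 8.98 CPM in library 3 and at most 0.376 CPM in the other 4. The 8 tested constant genes had a median of -1.25, which was -4.18 without B-depleted libraries 3 and 5 and 0.26 without WT libraries 1 and 2.

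**Figure D2:**
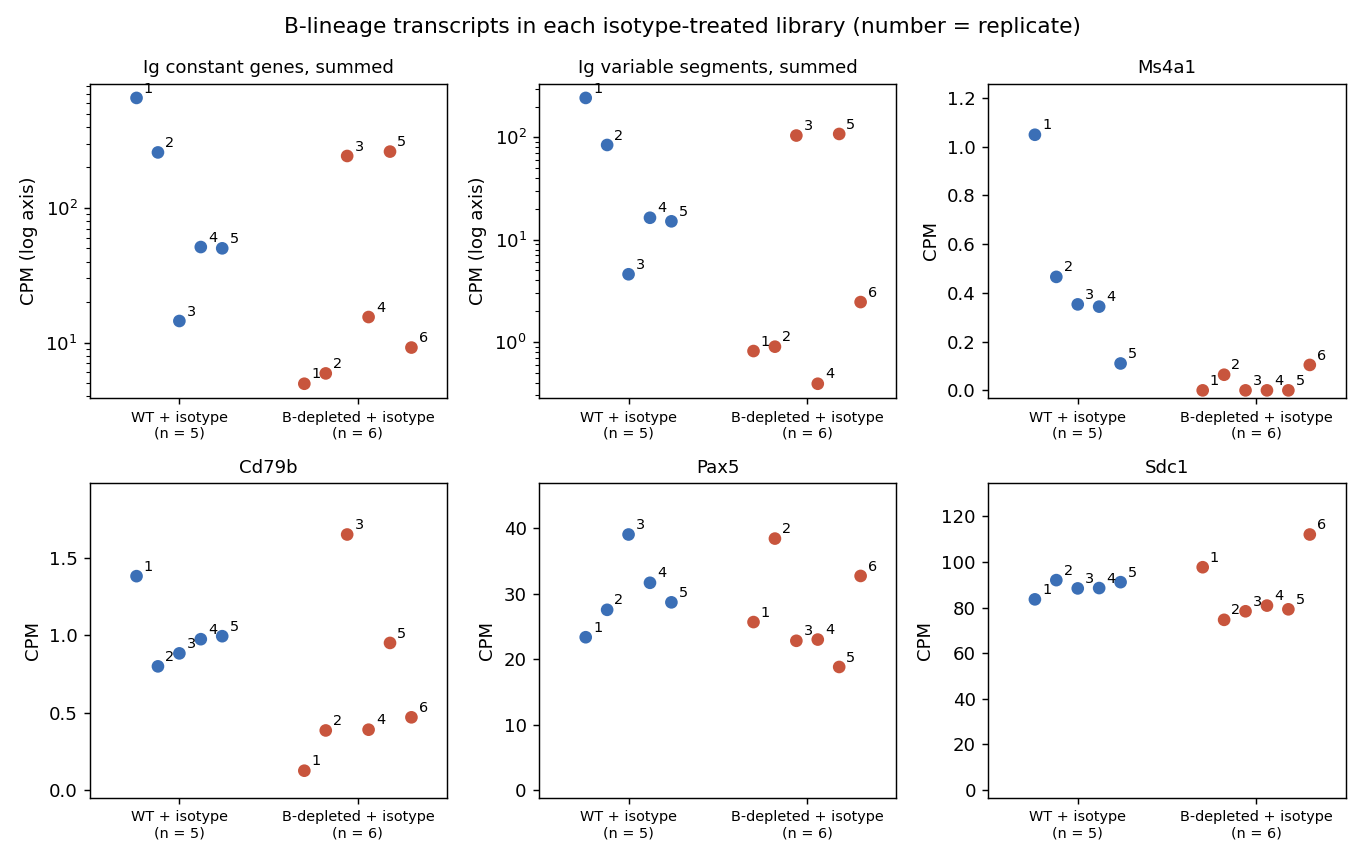
Level in CPM of summed immunoglobulin constant genes, summed variable segments, Ms4a1, Cd79b, Pax5 and Sdc1 in each of the 5 WT and 6 B-depleted isotype libraries, numbered by replicate, with a log axis for both sums. B-depleted libraries 3 and 5 sit with the WT libraries in immunoglobulin. Ms4a1 has no count in B-depleted libraries 1, 3, 4 and 5, and Cd79b, Pax5 and Sdc1 overlap between the arms.

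Genes of antibody-secreting cells differed in whether they followed the immunoglobulin RNA. Jchain, which joins IgM and IgA chains, was at 23.1, 8.85, 0.353, 4.18 and 1.76 CPM in WT and between 0.0626 and 9.53 CPM (median 0.348) in B-depleted tumours, with a log2 difference of -1.32 ± 1.04 (SE; 95% interval -3.48 to 0.85), and its high values came from the same 4 libraries as the immunoglobulins. Sdc1 (88.8 ± 3.28 CPM (SD, n = 5) in WT, 87.2 ± 14.6 CPM (SD, n = 6) in B-depleted tumours), Xbp1 (-0.05), Prdm1 (0.03) and Irf4 (-0.02) had arms that overlapped. Sdc1 had 1561 and 1164 counts in B-depleted libraries 1 and 2, where Jchain had 1 and 2. Like Xbp1 and Prdm1, it thus did not follow the immunoglobulin RNA, and which cells made these transcripts was not tested. Derl3, a secretory-pathway gene, differed by -0.80. Mzb1 and Tnfrsf17 were near 0 everywhere, with 5 and 2 counts in WT and 2 and 4 in B-depleted tumours. Tnfsf13b, which encodes the B-cell survival factor BAFF, differed by -0.26 ± 0.22 (SE; 95% interval -0.71 to 0.20). APRIL (Tnfsf13, -0.14) and the receptor TACI (Tnfrsf13b, 0.10) gave values as close to 0, and the BAFF receptor Tnfrsf13c had 16 and 23 counts.

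T-cell genes showed no shift that the test could detect. Cd3e, a chain of the T-cell receptor complex, was at 25.1, 36.3, 18.3, 25.1 and 34.9 CPM in WT and between 11.01 and 48.5 CPM (median 26.3) in B-depleted tumours, and Cd8a at 22.3, 25.6, 18.6, 27.2 and 37.2 CPM and between 11.5 and 39.02 CPM (median 24.3). In both genes the B-depleted values spanned the WT values at both ends. Their log2 differences were -0.06 ± 0.26 (SE; 95% interval -0.60 to 0.48) and -0.07 ± 0.24 (SE; 95% interval -0.56 to 0.43), which leaves room for a change of about the size of those limits in either direction. All 22 T-cell genes were tested, 0 had an unadjusted edgeR p under 0.05 (2.95% of all genes did), and the median was -0.03. Among cytotoxic effectors Gzmb differed by -0.13, Prf1 by -0.26 and Ccl5 by -0.16, and the 18 genes had a median of 0.01. NK-cell genes had a median of 0.05, checkpoint and costimulatory receptors -0.03, follicular helper genes -0.07 and regulatory T-cell genes -0.11. Foxp3, the regulatory T-cell transcription factor, was at 6.24, 9.45, 2.35, 4.47 and 5.02 CPM in WT and between 1.38 and 8.79 CPM (median 2.89) in B-depleted tumours (-0.36 ± 0.48 (SE; 95% interval -1.35 to 0.64)).

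Interferon and antigen-presentation genes were likewise centred near 0. Over 22 genes induced by interferon-gamma the median was 0.01, the type I list -0.01 over 22, MHC class I 0.03 over 16 and MHC class II 0.01 over 10. Cxcl9, an interferon-induced T-cell chemokine, ranged from 135 to 331 CPM in WT, and between 56.8 and 413 CPM with B cells depleted. Both extremes of Cxcl9 were B-depleted, library 6 being lowest and library 5 highest. Cd74, the class II chaperone that B cells share with other presenting cells, was at 1320.4 ± 494 CPM (SD, n = 5) in WT and 1348 ± 547 CPM (SD, n = 6) in B-depleted tumours. Cd274, which encodes PD-L1, differed by 0.01 ± 0.21 (SE; 95% interval -0.42 to 0.44). None of the genes in these 4 lists had an unadjusted p under 0.05.

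The immune lists spread widely within each arm. The T-cell, NK-cell, dendritic-cell, interferon and MHC class II lists were mostly high or low in the same libraries. The macrophage, monocyte and neutrophil lists did not follow them. As mean log2 CPM relative to the 11-library mean, MHC class II stood at 0.52 and 0.72 in WT libraries 1 and 2 and at 0.61 and 0.71 in B-depleted libraries 3 and 5. It stood at -0.70 in WT library 3 and -0.98 in B-depleted library 6. NK-cell genes ranged from -0.76 in B-depleted library 6 to 0.87 in B-depleted library 5 and 0.87 in WT library 2. In WT library 4 MHC class II stood at -0.46, but macrophage and monocyte genes at 0.55 and 0.69. Neutrophil genes stood at 2.03 in B-depleted library 6 and at -1.55 in WT library 1. The libraries compared set the sign of the median log2 differences of the lymphoid, interferon-gamma and MHC class II lists. Without WT libraries 1 and 2 the MHC class II median was 0.46, the T-cell median 0.14, the NK-cell median 0.83, the regulatory T-cell median 0.31 and the interferon-gamma median 0.23. Without B-depleted libraries 3 and 5 they were -0.34, -0.41, -0.46, -0.54 and -0.21 in the same order. Foxp3 itself was at 0.11 without WT libraries 1 and 2.

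Macrophage-related genes had mostly lower estimates, and none passed in the edgeR fit without covariates. Of 15 tested macrophage genes 13 had a lower estimate (median -0.26). Fc receptors had 8 of 8 lower (median -0.28) and complement genes 13 of 14 (median -0.19). Fcgr4, an activating Fc receptor of monocytes and macrophages, was at 48.4, 66.8, 47.8, 71.01 and 70.9 CPM in WT and between 28.7 and 63.5 CPM (median 46.5) in B-depleted tumours. It was the only Fc receptor with an unadjusted edgeR p under 0.05 (-0.45 ± 0.20 (SE; 95% interval -0.86 to -0.04), adjusted p 0.9998), and its arms overlapped. The inhibitory receptor Fcgr2b differed by -0.27 and the common signalling chain Fcer1g by -0.14. Mrc1, the mannose receptor, differed by -0.59 ± 0.33 (SE; 95% interval -1.28 to 0.10), with WT library 4 highest at 444 CPM. C1qb, a C1q chain made by macrophages, was at 177 ± 38.1 CPM (SD, n = 5) in WT and 138 ± 49.99 CPM (SD, n = 6) in B-depleted tumours, a difference of -0.37 ± 0.24 (SE; 95% interval -0.87 to 0.14).

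A fit that added the summed Y-linked level of each library as a covariate called 16 of 19061 genes (0.0839%), all lower in B-depleted tumours. C1qb was among them at -0.54 (edgeR adjusted p 0.0341), as were Tlr8, an endosomal RNA sensor, Vsir, the checkpoint VISTA, and Galc. Klf15 and Ass1 were also called, at -2.71 and -0.79. In that fit the macrophage median was -0.40 and the Fc receptor median -0.33. Restricted to the 11 isotype libraries, the same covariate left 0 genes called. The Y-linked level was highest in B-depleted libraries 3 and 5, which also stood high in the T-cell, NK-cell and MHC class II lists. Its part in these calls was not tested.

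Stromal, tumour and adjacent-tissue lists held no passing gene either. Cell-cycle genes had a median of 0.06 with 17 of 23 higher, endothelium 0.02 and fibroblast and matrix genes -0.09. Afp, the oncofetal hepatoma marker, was at 138, 171, 1460.1, 974 and 760.4 CPM in WT and between 298 and 959.7 CPM (median 568) in B-depleted tumours, lowest in WT libraries 1 and 2. Its log2 difference was -0.27 ± 0.58 (SE; 95% interval -1.49 to 0.94). Hepatocyte genes had a median of -0.39 with 7 of 8 lower. Neutrophil genes had a median of 0.51, which ran from -0.23 (without B-depleted library 6) to 0.70 (without WT library 4) when single libraries were left out, and S100a8 spanned 1.66 to 42.9 CPM in WT and 0.835 to 147 CPM with B cells depleted. Skeletal-muscle genes were higher in 14 of 14 with a median of 1.0, which ran from 0.12 (without B-depleted library 3) to 2.38 (without WT library 3). Myh4, a fast muscle myosin, was at 61.8 CPM in B-depleted library 3 and 13.9 CPM in WT library 3, and at 0.0626 CPM in B-depleted library 1.

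**Figure D3:**
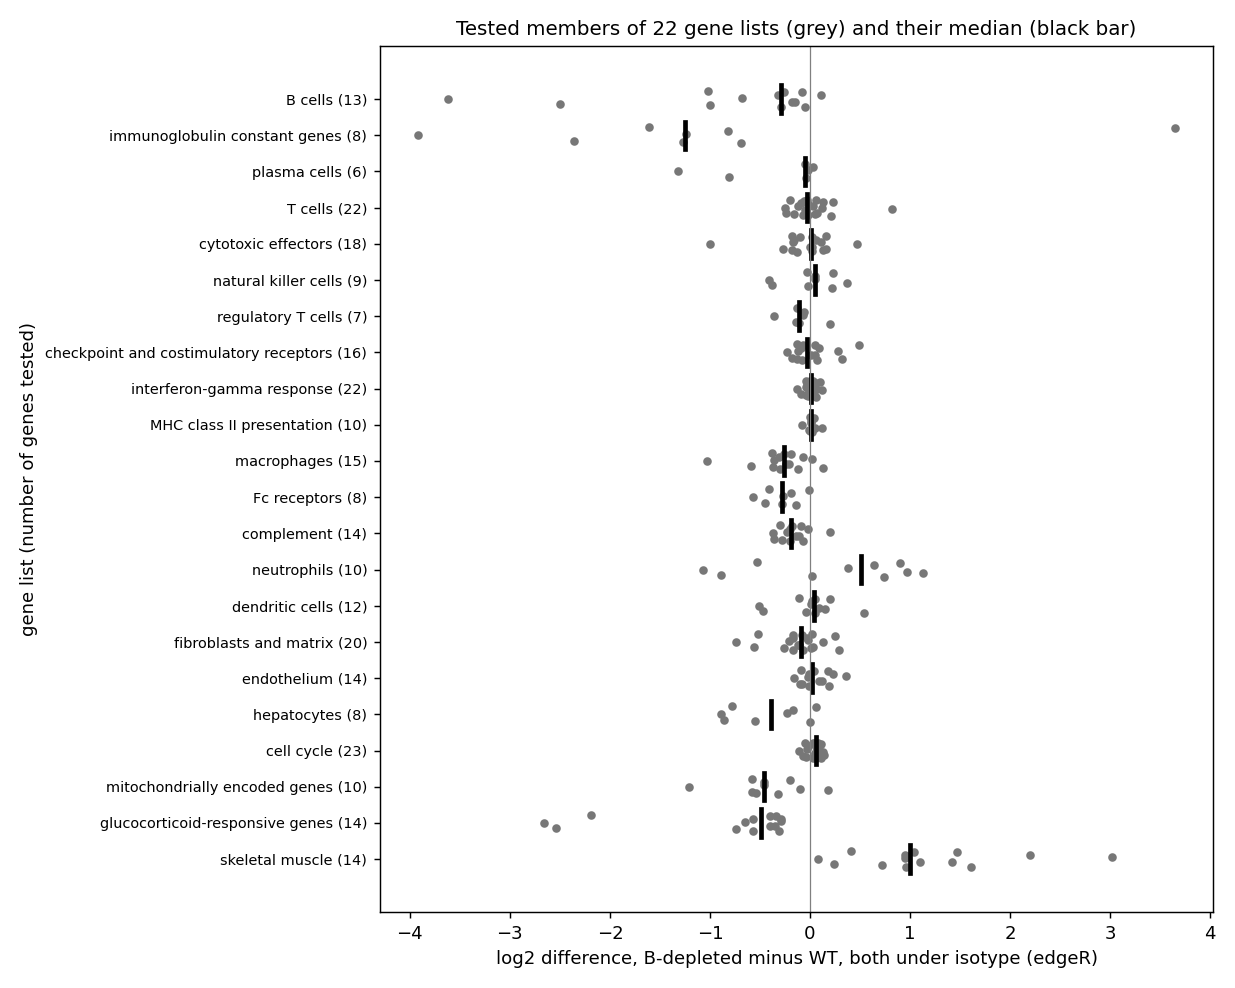
Log2 difference between B-depleted and WT tumours under isotype (x axis) for each tested member of 22 gene lists (y axis, grey points), with the list median as a black bar. T-cell, interferon-gamma, MHC class II and cell-cycle genes gather at 0, while B-cell, immunoglobulin, mitochondrially encoded and glucocorticoid-responsive genes lean to the lower side.

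**Figure D4:**
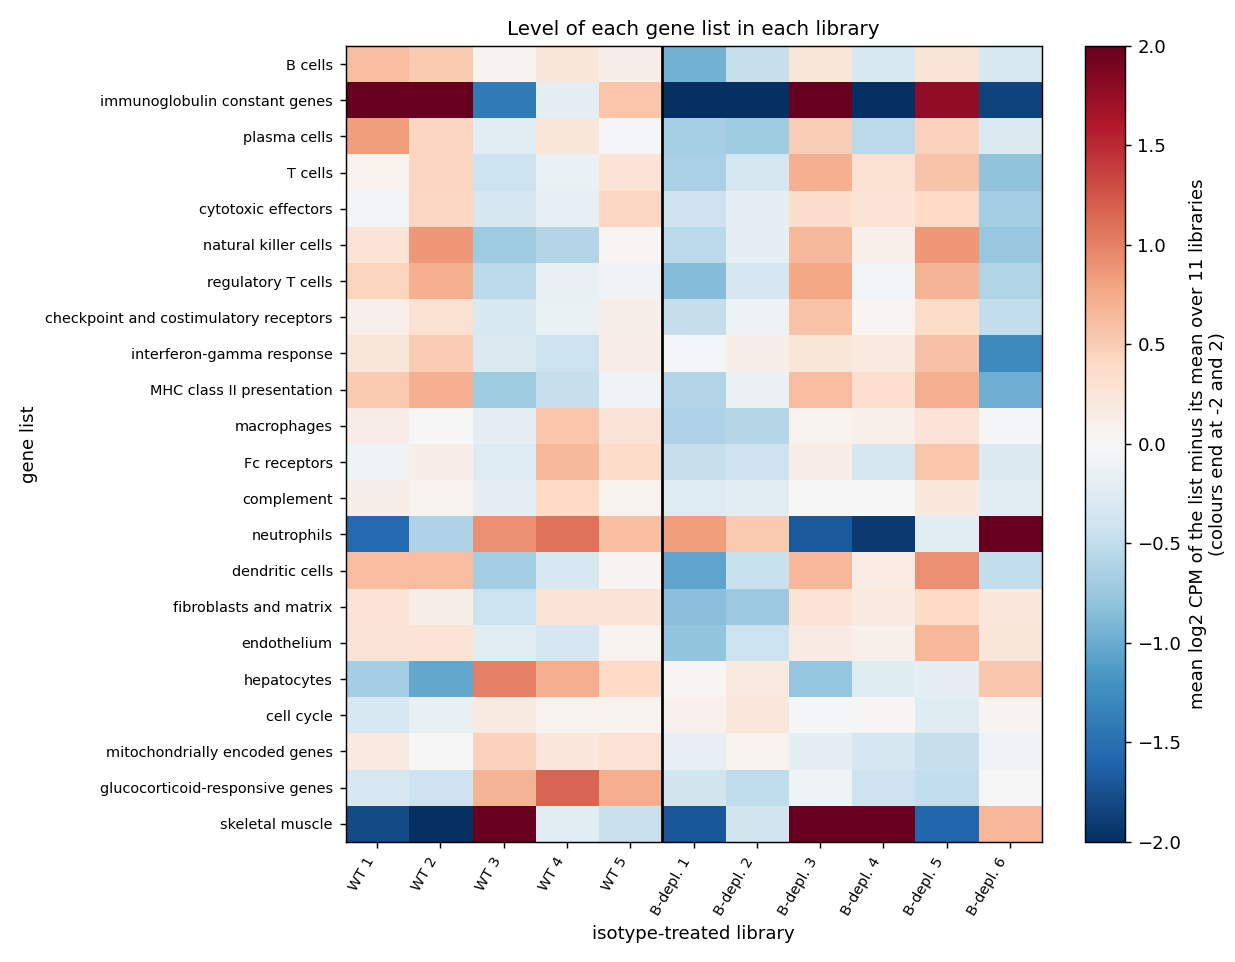
Mean log2 CPM of each list (rows) in each of the 11 isotype libraries (columns), relative to the list's mean over all 11, on a colour scale that ends at -2 and 2. WT libraries 1 and 2 and B-depleted libraries 3 and 5 are high in the immunoglobulin, NK-cell and MHC class II lists, and glucocorticoid-responsive genes are high in WT libraries 3 to 5.

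The gene nearest to the threshold was Klf15, a Krüppel-like transcription factor that glucocorticoids induce and that controls amino acid and glucose metabolism. It lies on chromosome 6 at 90462576-90475238 (plus strand, GRCm38). Klf15 was at 1.21, 1.13, 1.59, 6.36 and 3.59 CPM in WT and at 0.376, 0.257, 0.641, 0.501, 0.415 and 0.470 CPM in B-depleted libraries. Every B-depleted library was below every WT library, and WT libraries 4 and 5 were highest. The log2 difference was -2.65 ± 0.42 (SE; 95% interval -3.52 to -1.79) with an edgeR adjusted p of 0.0583. Klf15 passed in DESeq2 (-2.67, adjusted p 3.4e-05), in edgeR with no filter on low counts (adjusted p 0.0146), with either replicate block (0.0222 and 0.0297) and with the Y-linked covariate (0.0187). It did not pass with RLE size factors (0.0539), with thinned counts (0.115), without B-depleted libraries 3 and 5 (0.574), in limma voom (0.979), or in edgeR fits on the 11 isotype libraries alone (0.9998) and with the covariate there (0.144). The estimate was -2.65 on the 11 libraries and -2.33 in limma voom. WT libraries 1 and 2 were the lowest of their arm, so leaving them out raises the WT mean by construction, and the adjusted p was then 0.00143 (-3.12). Leaving out single libraries gave log2 differences from -2.86 to -2.09, with edgeR adjusted p from 0.0144 (without WT library 2) to 0.286, and it passed without WT library 1 as well (0.019).

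Ass1, argininosuccinate synthase of the urea cycle and arginine synthesis, followed. It was at 57.3, 70.8, 76.8, 114 and 85.4 CPM in WT and at 39.9, 40.2, 48.1, 49.3, 54.9 and 56.3 CPM in B-depleted libraries, again without overlap, the gap between the arms being narrow. Its log2 difference was -0.76 ± 0.14 (SE; 95% interval -1.06 to -0.47) (edgeR adjusted p 0.268), and it passed in DESeq2 (adjusted p 0.00219), with the Y-linked covariate (0.0315) and without WT library 1 (0.0341) or WT libraries 1 and 2 (0.00876), its lowest WT libraries. It did not pass with no filter (0.144), RLE size factors (0.255), thinned counts (0.239), either replicate block (0.167 and 0.34), without B-depleted libraries 3 and 5 (0.708), in limma voom (0.823) or on the 11 isotype libraries alone (0.9998, and 0.162 with the covariate). The processed pseudogene Gm5424 differed by -0.81, and reads may be shared between it and Ass1. Slc7a2, a cationic amino acid transporter, differed by -0.30 ± 0.10 (SE; 95% interval -0.50 to -0.10) with arms that overlapped, while Arg1, arginase, went the other way at 0.35. Over 10 tested urea cycle and arginine genes, a list chosen after their values were seen, the median was -0.08.

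The promoters of Klf15 and Ass1, the 2 leading genes, are given as the 250 bases before the RefSeq start (GRCm38.p6), both on the plus strand. The capitals mark CACGTG, a palindromic form of the E-box that basic helix-loop-helix factors bind, picked after the sequences were seen. Other forms of the E-box were not searched. It stands 2 times in the Klf15 window (chr6:90462326-90462575) and 1 time in the Ass1 window (chr2:31470020-31470269), and 6.02% of 32851 windows of this length hold it. The glucocorticoid receptor half-site TGTTCT, searched on both strands as TGTTCT or AGAACA, is in neither window and in 16.1% of all windows.
Klf15: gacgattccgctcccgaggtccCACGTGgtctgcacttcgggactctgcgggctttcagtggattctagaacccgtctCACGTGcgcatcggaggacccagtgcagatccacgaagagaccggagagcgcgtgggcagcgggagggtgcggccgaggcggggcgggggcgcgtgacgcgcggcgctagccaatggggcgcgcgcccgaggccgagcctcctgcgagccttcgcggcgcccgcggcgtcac
Ass1: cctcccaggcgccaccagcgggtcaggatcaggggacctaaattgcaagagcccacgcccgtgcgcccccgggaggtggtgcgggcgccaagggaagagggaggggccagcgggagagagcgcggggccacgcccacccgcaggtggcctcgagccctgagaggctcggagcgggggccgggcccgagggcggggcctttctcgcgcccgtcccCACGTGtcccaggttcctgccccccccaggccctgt

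Glucocorticoid-responsive genes were listed after their values were seen, and Klf15 is one of the 14. The 13 others had 13 lower estimates with a median of -0.40, against -0.49 with Klf15. Of the others, 5 had an unadjusted edgeR p under 0.05 in the lower direction (1.8% of all genes did), and the arms overlapped in each of the 13. Since the list was chosen with these values known, setting it against all genes is no test of the list. Fam107a, an actin-associated stress-induced gene, was at 0.718, 0.798, 2.29, 11.1 and 5.79 CPM in WT and between 0.250 and 1.07 CPM (median 0.687) in B-depleted tumours, a log2 difference of -2.54 ± 0.56 (SE; 95% interval -3.70 to -1.38) (edgeR adjusted p 0.775, DESeq2 adjusted p 0.0264). Fkbp5, a co-chaperone that restrains the glucocorticoid receptor, was at 76.2, 83.7, 230.0, 282 and 236 CPM in WT and between 88.2 and 156 CPM (median 128) in B-depleted tumours. The WT arm was divided: libraries 3 to 5 lay above every B-depleted library, and libraries 1 and 2 below all of them. Hif3a (-2.19), Tsc22d3 (-0.64), Sgk1 (-0.34) and Zbtb16 (-0.73) were likewise lowest within the WT arm in libraries 1 and 2.

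Since these are the lowest WT libraries, leaving them out widens the difference by construction, and the calls that follow are a description of WT libraries 3 to 5. Without WT libraries 1 and 2, edgeR called 25 of 19778 genes (0.126%), all lower in B-depleted tumours, and the list median was -0.80. Klf15, Fam107a (-3.16), Ass1 (-0.95), Sgk1 (-0.55), Fkbp5 (-1.03) and Hif3a were among those called, as were Gclc, Ppara and Glul. In the same 3 libraries Afp, acute-phase and neutrophil genes were higher than in WT libraries 1 and 2. The acute-phase list stood at 1.34, 2.91 and 1.57 in WT libraries 3 to 5 against -2.12 and -2.19 in libraries 1 and 2, relative to the 11-library mean. The part of these other shifts in the Klf15 and Fkbp5 values was not tested. Clock genes had a median of -0.04 over 14 genes, also chosen after the values were seen.

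**Figure D5:**
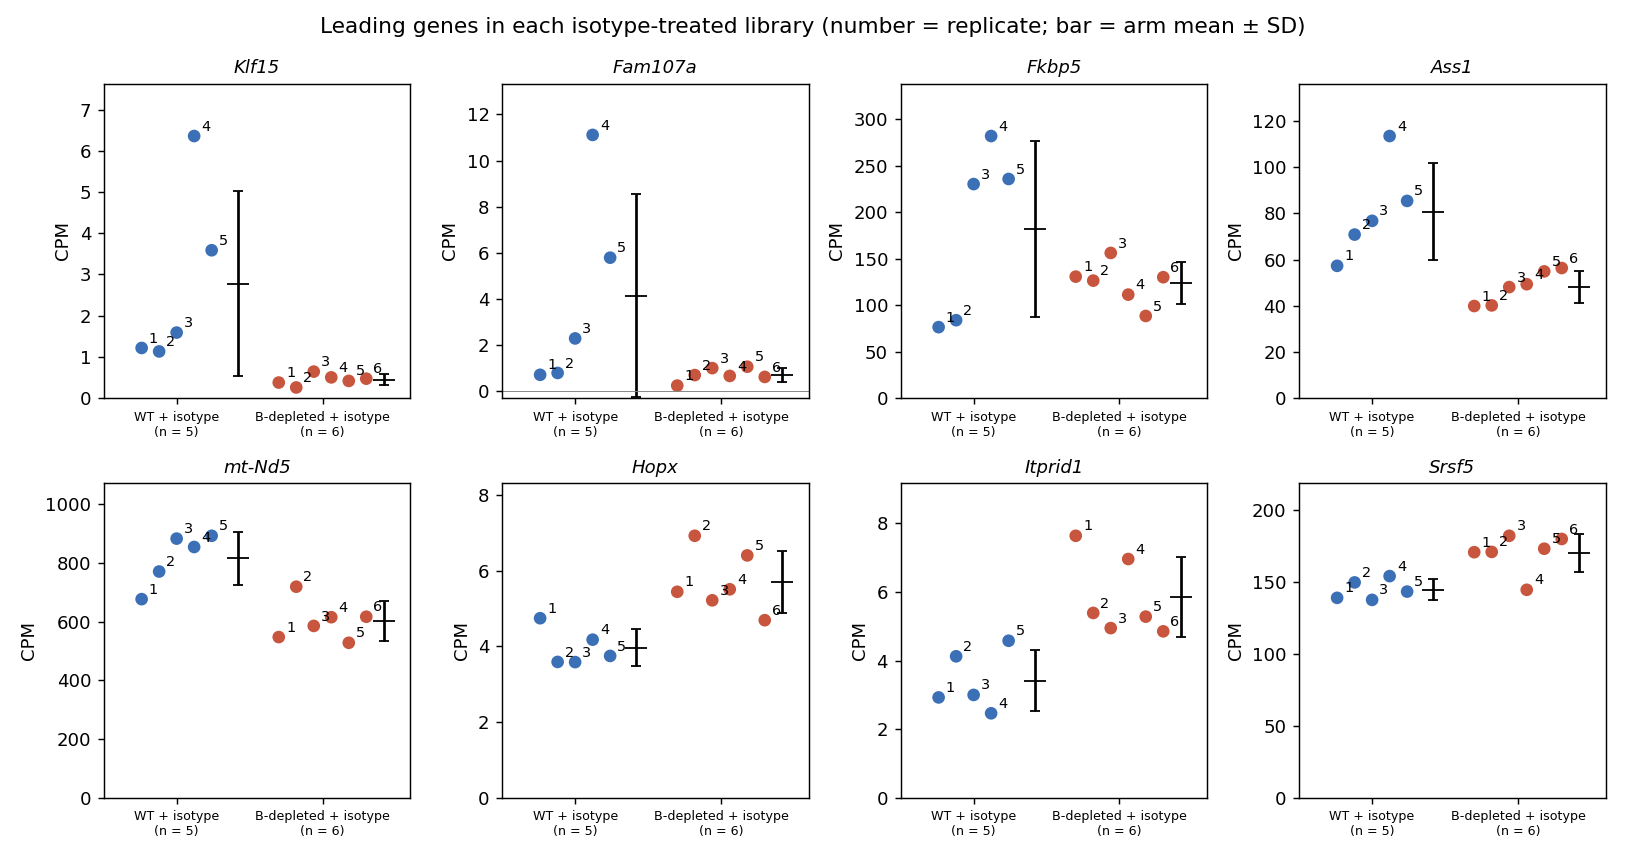
Level in CPM of 8 leading genes in each isotype library, numbered by replicate, with the mean and SD of each arm as a bar. Klf15 and Ass1 do not overlap between the arms, Fkbp5 divides the WT arm into high libraries 3 to 5 and low libraries 1 and 2, and Itprid1 is higher in every B-depleted library than in any WT library.

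Transcripts encoded on the mitochondrial genome had mostly lower estimates, and none passed in edgeR. mt-Nd5, a subunit of respiratory complex I, was at 677, 771, 883, 854 and 893 CPM in WT and between 528 and 719 CPM (median 600.4) in B-depleted tumours, which overlapped only through B-depleted library 2. Its log2 difference was -0.45 ± 0.12 (SE; 95% interval -0.71 to -0.20) (edgeR adjusted p 0.9998). mt-Nd4 differed by -0.58, mt-Cytb of complex III by -0.58 and mt-Co1 of complex IV by -0.32. Of 10 tested genes 9 were lower, 7 of them with an unadjusted edgeR p under 0.05 (1.8% of all genes were lower at that level), and the median was -0.46. Leaving out single libraries kept the median between -0.51 and -0.38. mt-Co3, at 3.37, 1.197, 2.23, 2.69 and 2.32 CPM in WT and between 0.668 and 1.25 CPM (median 1.16) in B-depleted tumours, differed by -1.21 ± 0.26 (SE; 95% interval -1.76 to -0.66). It passed in DESeq2 (adjusted p 0.0416) and not in edgeR (0.775). Like mt-Atp6 and mt-Co2, mt-Co3 was counted at low levels only, at most 3.37 CPM. Near-identical nuclear copies could take or lend reads, so the mt-Co3 value is uncertain. The mitochondrially encoded share of all counts was 2.12% to 2.61% in WT and 1.94% to 2.15% in B-depleted tumours. RNA quality was not measured in these files, and its part was not tested.

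Some of the largest estimates moved strongly with single libraries. Armc5, an adrenal tumour-suppressor gene, was at 486, 17.2, 12178, 454 and 90.5 CPM in WT and between 15.97 and 79.3 CPM (median 19.97) in B-depleted tumours. Its log2 difference of -6.58 ± 1.61 (SE; 95% interval -9.94 to -3.21) was -3.16 without WT library 3, and the arms overlapped. Armc5 passed in DESeq2 (adjusted p 0.00137) and not in edgeR (0.9998). Men1, which encodes menin and was picked after its values were seen, had 322 CPM in WT library 2, and its difference of -1.34 became -0.18 without that library. Pde11a, a phosphodiesterase, was high in WT libraries 3 and 5. It was at 2.93, 2.13, 13.99, 2.63 and 11.3 CPM in WT and between 0.962 and 2.25 CPM (median 1.53) in B-depleted tumours (-2.04 ± 0.56 (SE; 95% interval -3.21 to -0.87)).

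On the higher side no gene came near the threshold. Hopx, a homeodomain-only cofactor that effector T cells and some epithelia express, had the smallest unadjusted p of the genes named on this side. It was at 4.75, 3.59, 3.59, 4.18 and 3.75 CPM in WT and between 4.696 and 6.93 CPM (median 5.48) in B-depleted tumours, a difference of 0.50 ± 0.14 (SE; 95% interval 0.21 to 0.79) (edgeR adjusted p 0.9998), and B-depleted library 6 touched the WT range. Itprid1 was at 2.93, 4.12, 2.999, 2.46 and 4.58 CPM in WT and between 4.85 and 7.64 CPM (median 5.33) in B-depleted tumours and did not overlap (0.76 ± 0.23 (SE; 95% interval 0.28 to 1.25)). Atf7ip, a cofactor of the H3K9 methyltransferase SETDB1, was higher in all 6 B-depleted libraries than in any WT library, at 291 ± 17.5 CPM (SD, n = 6) against 253 ± 11.7 CPM (SD, n = 5). Crebzf, a bZIP transcription factor (0.26 ± 0.08 (SE; 95% interval 0.09 to 0.43)), and Srsf5, a splicing factor (0.22 ± 0.07 (SE; 95% interval 0.07 to 0.37)), were small steps at high precision, and B-depleted library 4 lay within the WT range of both.

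Hist1h2ae (0.54), Hist2h3c2 (0.76) and the small nucleolar RNA Snord49b (1.49) completed the higher side. Most replication-dependent histone transcripts and small nucleolar RNAs lack a poly(A) tail, and the library kit selects polyadenylated RNA. Hist1h2ae was at 2.26, 1.93, 2.53, 2.23 and 1.65 CPM in WT and between 2.71 and 3.66 CPM (median 3.14) in B-depleted tumours, without overlap. Near-identical histone copies may share its reads.

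The same depletion comparison under anti-PD1 plus anti-CTLA4 used 10 other libraries, and its values stand beside those under isotype. The B-cell list had a median of -1.31 there against -0.29 under isotype, the immunoglobulin constant genes -5.09 against -1.25, and T cells -0.90 against -0.03. The low values were not particular to lymphoid lists. Dendritic-cell genes were at -1.29 there, mast-cell, basophil and eosinophil genes at -1.31 and macrophage genes at -0.78. Other lists were higher, with hepatocyte genes at 2.28 and cell-cycle genes at 0.67. For Klf15 the differences were -0.55 and -2.65, and for Ass1 -0.40 and -0.76. In edgeR under the combination Ass1 passed (adjusted p 0.0494) and Klf15 did not (0.306). Of the other genes named by unadjusted p, Ighg2b (-7.92, 0.00458), Pde11a (-2.28, 0.0129), Itprid1 (1.42, 0.00429) and Hist1h2ae (0.505, 0.0406) passed there with the same sign. Hopx passed with the other sign (0.00415), and the rest did not pass. An unadjusted edgeR p of 0.0143, that of Ass1, was enough to pass there, which requires that a large share of all genes passed. That share was not counted, so passing there does not set these genes apart or show that the isotype differences recur. Tested as an interaction in edgeR, the depletion difference differed between treatments in 5 of 19061 genes (0.0262%). Hopx was one of them: its depletion difference was -0.86 under the combination and 0.50 under isotype, a difference of -1.36 (adjusted p 0.0241). The other 4 were Oxct2b (2.29 under the combination, -0.04 under isotype), Srrm4 (0.96, -0.51), Atp6v0d2 (-1.29, -0.05) and the pseudogene Gm49146 (3.89, -1.37), named because they passed. For Klf15 the interaction had an adjusted p of 0.0821. The count of 5 rested on the libraries used, being 2007 without WT libraries 1 and 2, 0 without B-depleted libraries 3 and 5, and 1210 in DESeq2.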

How the data were processed

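Tumour RNA was extracted from frozen tissue and sequenced after poly(A) selection in a stranded kit, per the labels' protocols. The authors deposited raw read counts per gene. Reads were trimmed with cutadapt 2.4 and aligned with STAR 2.7.2a to GRCm38, per the submitters' processing notes; the program used for counting, its strand setting and the annotation were not given in sources used here. Of 55487 Ensembl identifiers, 55227 matched GENCODE M21, which gave symbols and positions. All 21 count columns matched a sample's description. CPM are counts divided by the library total; list levels and fits use TMM-scaled library sizes. Genes with enough counts by edgeR's filterByExpr were tested with edgeR 4.0.16 (glmQLFit and glmQLFTest, R 4.3.3, 4 arms in one fit without covariates), with Benjamini-Hochberg adjustment over 19061 genes; a common biological coefficient of variation of 0.246 and a median SE of 0.18 on the log2 scale set the precision. The script was tested on simulated counts.

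Named genes were those past an adjusted p of 0.05 with a mean of at least 1 CPM over the isotype libraries, excluding clone-named genes, pseudogenes and variable segments, filled to 8 per direction by unadjusted p, plus members of gene lists, in full for the B-lineage lists and otherwise up to 4 by mean CPM. Genes outside this rule (Men1, Gm5424, and genes called under other settings or in the interaction) were picked after their values were seen. One gene of the B-cell list is counted in the list's totals and is not reported here. The comparison, lists and tests were chosen with earlier results of these data known. Alternatives were RLE size factors, no filter, DESeq2 1.42.0, limma 3.58.1 (voom), thinning all libraries to the depth of the shallowest, replicate blocks, only the 11 isotype libraries, a Y-linked covariate, and leaving out libraries. Leaving out B-depleted libraries 3 and 5, and the Y-linked covariate on 11 libraries, were chosen after seeing the data.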

Additional observations from a re-analysis of the deposited data

Results flagged for a closer look

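In 62 groups of 5 or 6 values (single genes or library measures within an arm), the highest or lowest library was compared with its nearest neighbour by Dixon's test, and chance alone flags about 1 in 20 groups. In all, 8 libraries' values stood far from the others. Armc5 was at 12178 CPM in WT library 3, with the next value at 486 CPM, and at 79.3 CPM in B-depleted library 5, with the next at 22.8 CPM. Men1 was at 322 CPM in WT library 2, with the next at 49.0 CPM. Among immunoglobulin genes, Ighg2b was at 39.7 CPM in WT library 1 (next 11.2 CPM) and Igkc at 77.5 CPM in B-depleted library 3 (next 14.5 CPM). Snord49b was at 1.38 CPM in WT library 5 (next 0.823 CPM), and Srsf5 at 144 CPM in B-depleted library 4, the lowest of its arm (next 171 CPM). The summed Y-linked level was lowest in WT library 3 at 47.6 CPM, with the next at 75.8 CPM.

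Hopx was the named gene whose depletion difference differed between treatments: the difference under the combination minus that under isotype was -1.36 on the log2 scale, in the edgeR interaction test (adjusted p 0.0241). Fits that called 0 genes for this interaction did not call Hopx, by definition. Among them were those with the Y-linked covariate and without B-depleted libraries 3 and 5.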

How the results depend on the processing

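The count of genes called between the isotype arms was 0 in the edgeR fit as reported, with RLE size factors, limma voom, thinned counts, only the 11 isotype libraries and, chosen after seeing the data, without B-depleted libraries 3 and 5 or with the Y-linked covariate on 11 libraries. It was 1 with no filter, 5 in DESeq2, 16 with the Y-linked covariate and 25 without WT libraries 1 and 2. Leaving out single libraries gave 0 to 2, the 2 being without WT library 1. The cause was not tested. The interaction count of 5 became 1210 in DESeq2, 3 with thinned counts, 0 with the Y-linked covariate, 2007 without WT libraries 1 and 2, and 0 without B-depleted libraries 3 and 5, and it ranged from 0 to 8 when single libraries were left out.

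Replicate numbers paired nothing visible: deviations of same-numbered libraries correlated from -0.36 to -0.17 over 2000 genes, and 0 of 5 matched their own number best. With a replicate block by title number, 1 gene was called between the arms and 0 in the interaction, and with a replicate block by description code 1 and 5.

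The summed Y-linked difference of 0.13 ranged from -0.0130 (without WT library 3) to 0.276, and the library total difference from -1.69 to -0.04 M counts, when single libraries were left out. Over the alternatives, 624 of 638 values for 28 single genes kept the sign of the reported value, and 14 values, of 5 genes, took the other sign with none past the threshold. Igkc was 0.26 and Foxp3 0.11 without WT libraries 1 and 2, and Cd3e, Cd8a and Gzmb, reported near 0, lay on either side of it. Past the threshold were 19 values of 8 genes. Of 924 values for 42 list medians, 155 took the other sign, and 31 lists did so under at least 1 alternative. At 10.92 to 19.17 M counts (M, 1e+06), Ms4a1 rests on few counts, and small differences in it were not detectable.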

Other observations

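Several gene groups not described above had medians near 0 between the isotype arms, with no gene past the edgeR threshold in any of them. Lipid and sterol synthesis genes had a median log2 difference of -0.03 over 14 genes, with Fasn, fatty acid synthase, at -0.14 ± 0.22 (SE; 95% interval -0.59 to 0.31) and Sqle, squalene epoxidase, at -0.10. Hypoxia and glycolysis genes had a median of -0.01 over 15 genes, with Ldha at -0.00 ± 0.15 (SE; 95% interval -0.31 to 0.31) and Vegfa at 0.01. Immediate early genes had a median of -0.14 over 14 genes, immunosuppressive factors 0.03 over 12 and T-cell chemokines and their receptors 0.05 over 12. Lymphoid follicle genes had a median of 0.04 over 8 and dendritic-cell genes 0.04 over 12. The dendritic-cell median was 0.54 without WT libraries 1 and 2 and -0.34 without B-depleted libraries 3 and 5, and the chemokine median 0.28 and -0.26. Nos2, inducible nitric oxide synthase, was at 51.5 ± 10.9 CPM (SD, n = 5) in WT and 69.7 ± 21.3 CPM (SD, n = 6) in B-depleted tumours (0.43 ± 0.25 (SE; 95% interval -0.09 to 0.95)).

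Wider estimates came from groups of few or low genes. Monocyte genes had a median of -0.25 over 8, mast-cell, basophil and eosinophil genes 0.19 over 8, which was -1.24 without B-depleted libraries 3 and 5. Acute-phase genes had a median of -0.61 over 5, hepatoma and oncofetal genes -0.12 over 6, adipocyte genes 0.20 over 7, epidermal genes 0.04 over 5 and red-cell genes 1.15 over 3. Leaving out single libraries moved the acute-phase median from -1.55 (without B-depleted library 6) to -0.19 (without WT library 4), the hepatoma median from -0.29 (without WT library 1) to 0.14 (without WT library 3) and the adipocyte median from -0.09 (without B-depleted library 6) to 0.75 (without WT library 1). The monocyte median ran from -0.38 (without B-depleted library 5) to 0.02 (without WT library 4). Fga, a fibrinogen chain, was at 0.0552, 0.133, 5.17, 19.8 and 3.14 CPM in WT and between 0.183 and 2.504 CPM (median 1.33) in B-depleted tumours, with a difference of -2.22 ± 1.06 (SE; 95% interval -4.44 to -0.00), and its arms overlapped. The tested plasma-cell genes had a median of -0.05 over 6, the BAFF and APRIL genes -0.14 over 3 and the Y-linked genes 0.16 over 4.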
